A study of Mus musculus with 4 samples.

Results

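The genes described here encode the mitochondrial respiratory chain and the ATP synthase, with the factors that assemble cytochrome c oxidase. They were taken by symbol, as every gene on the array whose name begins with Nduf followed by a, b, c, s or v and a digit, with Uqcr, with Cox4 to Cox8, with Atp5 and a letter, or is one of Cox10 to Cox19, and 1 pseudogene name was left out. The rule gave 88 genes of the 34816 gene names on the array, read by 131 probes, of which 58 genes had a single probe. By symbol there were 37 genes of Complex I, 8 of Complex III, 18 of Complex IV, 8 Complex IV assembly factors and 15 of Complex V. Ndufa4, now known as a subunit of Complex IV, and its paralog Ndufa4l2 were counted with Complex I for their symbols. The remaining 2, Atp5s and Atp5sl, carry an ATP synthase symbol but are now named Dmac2l and Dmac2, and were kept apart. Complex II was not included.

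The samples were mouse embryonic fibroblasts (MEFs) from male E13.5 embryos of Oct4-EGFP transgenic mice, in which the Oct4 promoter and enhancer drive a fluorescent reporter. All cells were infected with retroviruses for Oct4, Sox2 and Klf4 (OSK), and in the OSKA cells also for AKT-MER, myristoylated AKT fused to a modified estrogen receptor that 4-hydroxytamoxifen (4OHT) switches on. From 3 days post infection (dpi) the cells received 4OHT or the ethanol vehicle, and total RNA was taken at 8 dpi. Single-colour arrays were run on 4 samples: OSK − 4OHT (OSK, vehicle), OSK + 4OHT (OSK with 4OHT), OSKA − 4OHT (OSK with AKT-MER, vehicle) and OSKA + 4OHT (OSK with AKT-MER and 4OHT). A free-text note on the OSKA + 4OHT sample says that AKT-MER was not active, against its title and the design, and the title was followed.

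There was 1 array per group and all 4 lay on 1 slide, so no difference below has a replicate check or a p-value, and the place on the slide and the group cannot be told apart. A level is the log2 intensity of a probe less its array's 75th percentile, and a difference is the level of one probe on one array less its level on another. The spread of 399 probes that were each spotted 10 times gave an SD of 0.095 for a difference of log2 levels, and the scanner software's own error for a member difference was 0.20. Differences of at least 1.2-fold (0.26 on the log2 scale) were counted. In bulk RNA, fewer cells of a type and less RNA per cell cannot be told apart. The array detected the transgene: 1 of the 4 Esr1 probes, for the estrogen receptor gene, stood at 3.11 and 3.32 in the OSKA samples and was not well above background in the OSK samples, at least 219-fold apart without 4OHT and at least 233-fold apart with it. All 9 fibroblast markers were above background on the 4 arrays, with a median log2 level between 7.16 and 7.56. With 4OHT in OSKA cells they moved both ways. Col3a1, Thy1, Col1a1, Col1a2 and Pdgfra were 0.49, 0.40, 0.10, 0.06 and 0.02 higher. Pdgfrb, S100a4, Fn1 and Vim were 0.67, 0.40, 0.27 and 0.25 lower. The 4 white blood cell markers (Ptprc, Cd68, Adgre1 and Cd14) were also above background on all 4 arrays, and their summed linear level was 53.6 in OSK − 4OHT, 79.2 in OSK + 4OHT, 75.9 in OSKA − 4OHT and 69.7 in OSKA + 4OHT, lowest on the OSK − 4OHT array. The level of Ptprc, which defines these cells, ran from 0.16 to 0.66. In the same order of arrays the summed level of the 3 endothelial markers was 6.71, 11, 8.19 and 9.58, higher on both arrays with 4OHT, and came almost wholly from Kdr, which was 0.73 higher with 4OHT in OSK cells and 0.23 higher in OSKA cells. That of the 4 epithelial markers was 3.58, 2.84, 2.03 and 2.89. Within them Krt18 and Krt8, keratins, were 0.85 and 0.56 higher with 4OHT in OSKA cells and Epcam was 0.45 lower. The part of these markers in the results below was not tested. Of the 6 pluripotent markers Zfp42 and Esrrb were not well above background on any array and the other 4, Nanog among them, were on all, while Cdh5 of endothelium was on none.

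The respiratory chain passes electrons from NADH to oxygen and pumps protons across the inner mitochondrial membrane. Complex I oxidises NADH, Complex III hands electrons to cytochrome c, Complex IV reduces oxygen, and Complex V, the ATP synthase, uses the proton gradient to make ATP. Most subunits are nuclear encoded and imported, a small core is encoded by mitochondrial DNA, and assembly factors insert haem, copper and the core subunits. Some subunits have a second isoform that is restricted to muscle and heart, testis or low oxygen. Pluripotent stem cells are known to rely more on glycolysis than fibroblasts do, which is why this machinery is of interest during reprogramming.

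Many of these genes are known targets of NRF1 and GABPA, also called nuclear respiratory factors, of YY1 and of the estrogen-related receptor ESRRA, so their promoters were searched for the cores of those motifs. A promoter window, from 250 bases before to 50 bases after the annotated start, was at hand for 72 of the 88 genes (RefSeq, build GRCm38.p6). Both strands were searched, and matches of different motifs could overlap. The GABPA core CCGGAAG was present for 18 of the 72 genes (25%) against 9.93% of all 27025 genes with a window. The NRF1 core GCATGCGC was present for 9 (12.5% against 3.05%), the YY1 core AAGATGG for 13 (18.1% against 7.28%) and the ESRRA core AAGGTCA for 7 (9.72% against 5.38%). At least 1 of the 4 cores was found for 38 genes (52.8% against 23.1%), among them 17 of 32 genes of Complex I, 3 of 5 of Complex III, 4 of 13 of Complex IV, 4 of 6 assembly factors and 9 of 14 of Complex V. The median GC content of the windows was 57.2% for these genes and 52.8% for all genes. The 3 promoters in which 2 or more different cores lay wholly before the annotated start are shown, with the cores on either strand in capitals.
Atp5j, chr16:84834977-84835226, minus strand: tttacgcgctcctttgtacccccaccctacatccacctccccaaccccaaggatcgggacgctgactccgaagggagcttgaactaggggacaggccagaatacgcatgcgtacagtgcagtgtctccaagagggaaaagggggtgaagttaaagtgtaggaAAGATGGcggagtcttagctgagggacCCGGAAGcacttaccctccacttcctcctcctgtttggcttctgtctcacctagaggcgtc
Atp5l, chr9:44920743-44920992, minus strand: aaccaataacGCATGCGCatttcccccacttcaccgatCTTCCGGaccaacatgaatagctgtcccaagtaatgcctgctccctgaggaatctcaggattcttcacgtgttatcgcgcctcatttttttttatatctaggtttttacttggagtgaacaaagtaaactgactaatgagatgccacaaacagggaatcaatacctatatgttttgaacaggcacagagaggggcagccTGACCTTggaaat
Cox6a1, chr5:115348959-115349208, minus strand: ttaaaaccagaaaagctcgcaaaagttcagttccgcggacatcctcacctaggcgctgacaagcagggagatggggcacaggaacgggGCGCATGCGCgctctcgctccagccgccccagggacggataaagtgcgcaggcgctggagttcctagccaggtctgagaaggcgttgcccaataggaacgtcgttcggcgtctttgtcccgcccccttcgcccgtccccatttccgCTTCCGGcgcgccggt
Atp5j encodes a subunit of the peripheral stalk of the ATP synthase, Atp5l a small membrane subunit of it, and Cox6a1 the widely expressed isoform of cytochrome c oxidase subunit 6A. In Cox6a1 the NRF1 core lies on both strands, its copies starting 162 and 160 bases before the start and overlapping, with a GABPA core at 16. In Atp5j the YY1 core starts 88 and the GABPA core 61 bases before the start. In Atp5l the NRF1, GABPA and ESRRA cores start 240, 212 and 13 bases before it. A match describes letters only, and the factors themselves were not measured on these promoters. Over the 4 cores together, genes with and without a core had close medians in the comparisons described below: the median 4OHT difference in OSKA cells was 0.11 over the 38 genes with any core and 0.12 over the 32 without, and in OSK cells 0.10 and 0.08. The 7 genes with an ESRRA core had medians of 0.18 in OSKA cells and 0.15 in OSK cells, against 0.10 and 0.07 over the other 63, and of 0.09 against −0.02 between OSKA and OSK cells, both without and with 4OHT.

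**Figure D1:**
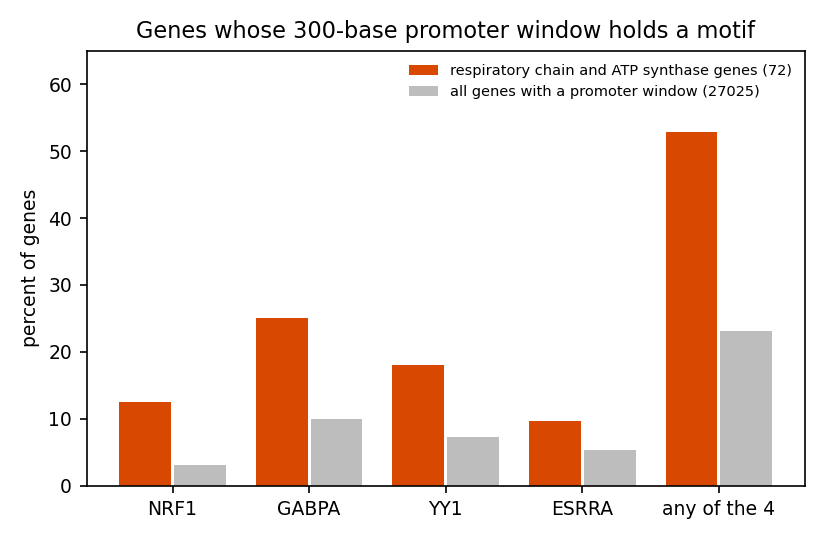
Percent of genes (vertical axis) whose 300-base promoter window holds each motif core, for the 72 respiratory chain and ATP synthase genes (orange) and for all 27025 genes with a window (grey). Each core was found in a larger share of the respiratory genes, 25% against 9.93% for GABPA.

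The probes of these genes were bright, and their range over the arrays was small. On all 4 arrays 84 of the 88 were well above background, 74 were in the brightest 33.3% of the 19540 genes measured on every array, and 80 had a mean level above the array's 75th percentile. The median range of a gene over the 4 arrays was 0.23 on the log2 scale, against 0.36 for all genes measured on every array and 0.28 for the brightest 33.3%. It was under 1.5-fold for 80 of the 84 (95.2%), against 75.3% of all genes and 88.9% of the bright ones. The other 4 were Ndufa4l2, Cox7a1, Cox6a2 and Uqcrq, and the first 3 of them are described before the rest, with Cox17. Of the 4 genes not measured throughout, Cox17 was above background on 2 arrays, Cox8b on 1, and Cox7b2 and Cox8c on none.

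Ndufa4l2 encodes a paralog of Ndufa4 and is known as a hypoxia-inducible gene whose product lowers respiration. Its log2 level was 1.15 in OSK − 4OHT, 1.60 in OSK + 4OHT, 1.23 in OSKA − 4OHT and 3.07 in OSKA + 4OHT. The array with both AKT-MER and 4OHT stood apart from the other 3, which lay within 0.45 of each other. It was 3.57-fold higher with 4OHT in OSKA cells (1.84 on the log2 scale) and 1.37-fold higher with 4OHT in OSK cells (0.45). Between OSKA and OSK cells it was 2.75-fold higher with 4OHT and 1.06-fold higher without. In OSKA cells only 0.389% of the 20300 measured genes had a larger difference with 4OHT. The value came from 1 spot of 1 probe, at chr10:126954149-126954208 on the plus strand of mm9, the build of the array. Over 8 alternative treatments of the data the 4OHT difference in OSKA cells lay between 1.74 and 1.85, and in OSK cells between 0.15 and 0.47. Several of these treatments cannot move the value of a gene with 1 probe, such as the filters on dim probes and the mean of all probes. Whether the probe lies in a coding or untranslated stretch was not analysed here, and its leading 30 of 60 bases are shown.
Ndufa4l2 probe: tgtccctggggatcaaacagaagcagccgt
The longest run of bases this probe shares with a probe of any other gene of the group was 10. Ndufa4 itself, long listed with Complex I and now known as a subunit of Complex IV, had levels of 4.44, 4.37, 4.37 and 4.41 in the same order of arrays, and its largest difference was 0.07 in size.

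Cox7a1 encodes the heart and skeletal muscle isoform of subunit 7A of cytochrome c oxidase. Its log2 level was 0.50 in OSK − 4OHT, 0.99 in OSK + 4OHT, 0.74 in OSKA − 4OHT and 1.44 in OSKA + 4OHT, so that both arrays with 4OHT lay above both without. It was 1.63-fold higher with 4OHT in OSKA cells (0.70) and 1.40-fold higher in OSK cells (0.49). Over the alternative treatments of the data the first difference lay between 0.64 and 0.72 and the second between 0.18 and 0.49. Its 60-base probe, at chr7:30970337-30970948 on the plus strand of mm9, spans 612 genomic bases and so crosses a splice junction.
Cox7a1 probe: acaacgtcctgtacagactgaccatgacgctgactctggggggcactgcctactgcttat
The widely expressed isoform Cox7a2 was at 4.77, 5.02, 4.85 and 5.10, 0.25 higher with 4OHT in both kinds of cells, though −0.06 in OSK cells under spike-in scaling. Cox7a2l, a related protein that joins respiratory supercomplexes, was at 6.30, 6.39, 6.26 and 6.04, and was lowest in OSKA + 4OHT. It was 0.22 lower with 4OHT in OSKA cells and 0.09 higher in OSK cells, and all 3 of its probes were lower in OSKA cells, by 0.31, 0.22 and 0.18.

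Cox6a2 encodes the muscle isoform of subunit 6A. Its log2 level was −2.09 in OSK − 4OHT, −1.40 in OSK + 4OHT, −1.09 in OSKA − 4OHT and −0.78 in OSKA + 4OHT. The OSK − 4OHT array was the lowest of the 4, and OSKA − 4OHT lay just short of 2-fold above it. With 4OHT it was 1.61-fold higher in OSK cells and 1.24-fold higher in OSKA cells. No other subunit differed as much between the vehicle-treated samples. Its widely expressed counterpart Cox6a1 was at 8.01, 8.13, 8.08 and 8.19, with no difference above 0.12. In the remaining isoform sets, Cox4i1, the usual form of subunit 4, was at 6.83, 6.95, 6.77 and 6.65, and Cox4i2, its lung and low-oxygen form, at −1.58, −1.57, −1.49 and −1.25. Cox4i1 was thus lowest and Cox4i2 highest in OSKA + 4OHT, with differences from OSK + 4OHT of −0.30 and 0.31. Cox6b1 did not move by more than 0.13 in any comparison, while the testis form Cox6b2 was 0.29 higher in OSKA − 4OHT than in OSK − 4OHT, a difference that became −0.15 when arrays were scaled to spike-in RNA. Cox7b and Cox8a, the usual forms of their subunits, were 0.13 and 0.09 higher with 4OHT in OSKA cells and 0.25 and 0.23 higher in OSK cells, the latter −0.05 and −0.08 under spike-in scaling. Cox8b, a muscle form, was well above background in OSKA + 4OHT alone, at least 2.33-fold above OSKA − 4OHT and at least 1.81-fold above OSK + 4OHT, from a level of −3.69 on an array whose lowest measured level was −4.77.

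Cox17 is the copper chaperone that delivers copper toward Complex IV. Its brightest probe stood at −2.33 in OSK − 4OHT and was near or below the limit of measurement elsewhere, at −4.86 in OSK + 4OHT, −4.69 in OSKA − 4OHT and −4.97 in OSKA + 4OHT. It was 2.36 lower on the log2 scale in OSKA − 4OHT than in OSK − 4OHT, 0.195 of the level, and at least 4.64-fold lower in OSK + 4OHT. This was 1 spot, and with another background correction the difference was −0.92. The other 2 probes were not well above background on any array. The leading 30 of 60 bases of each are shown with their mm9 positions on the plus strand, with the bases that one probe shares with another of the gene in capitals.
Cox17 probe 1, the brightest, chr16:38362195-38362254: attccaattccaaacatggtatccctctgg
Cox17 probe 2, chr16:38352772-38352831: ttctttggagaactTTGATAAATGGATAAA
Cox17 probe 3, chr16:38352786-38352845: TTGATAAATGGATAAAGTATTTATAATTTA
The brightest probe maps away from the other 2, which overlap each other by 46 bases and consist of A and T for 78.3% and 80.0% of their length, against 48.3% for the brightest. No probe of Cox17 therefore gave a level for this gene on all 4 arrays.

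**Figure D2:**
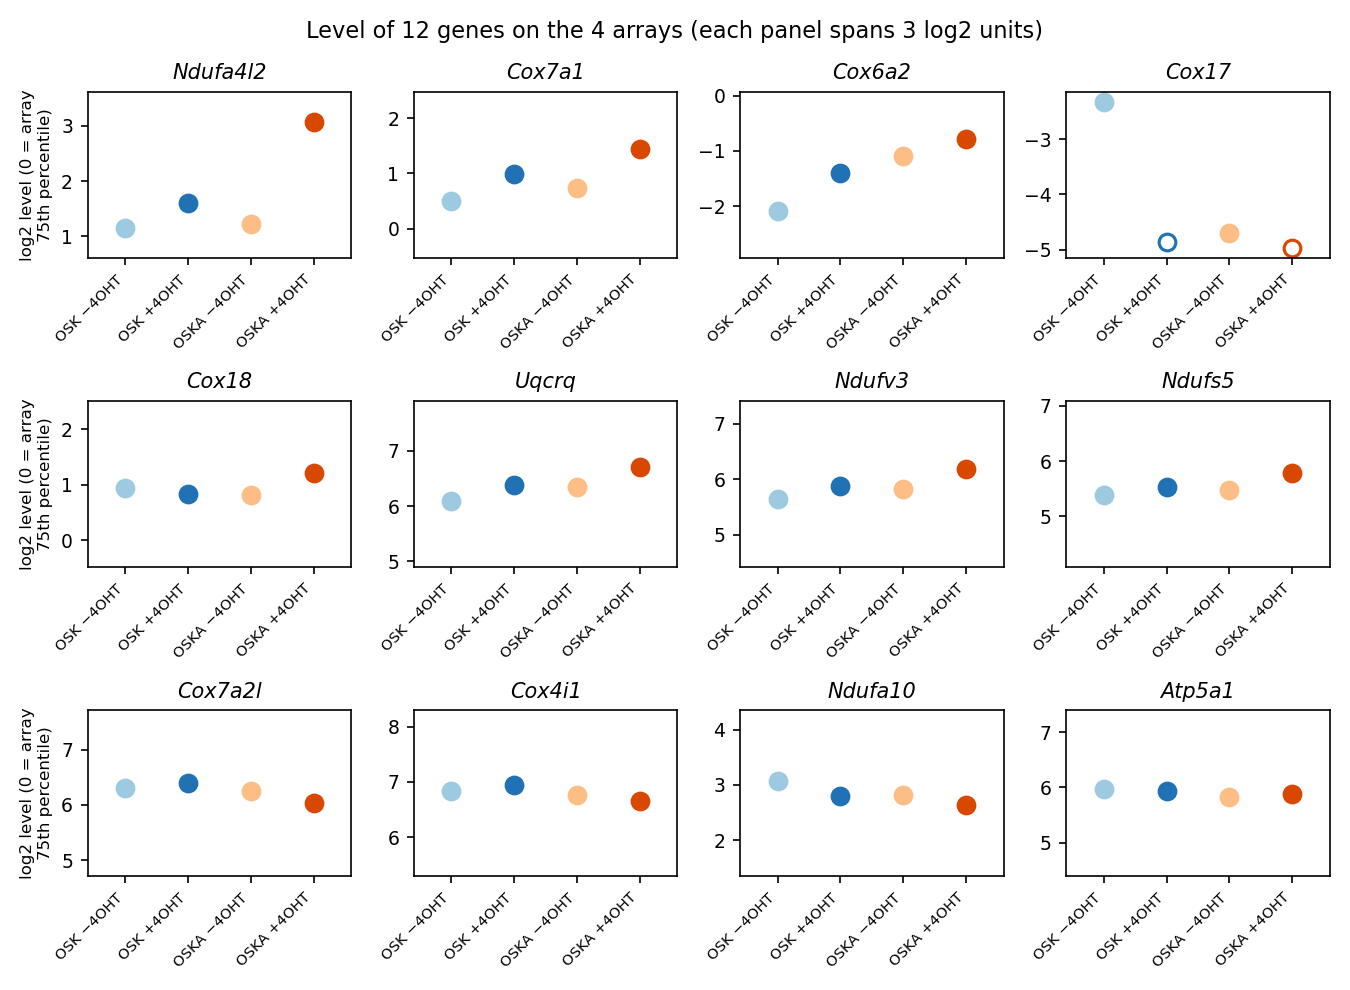
Log2 level relative to the array's 75th percentile (vertical axis, the same span in every panel) for 12 genes on the 4 arrays, 1 point per array; open circles were not well above background. Ndufa4l2 is high in OSKA + 4OHT, Cox17 in OSK − 4OHT, and most others lie nearly level.

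The comparison that bears most on AKT activation is 4OHT in OSKA cells, read beside 4OHT in OSK cells, which lack AKT-MER. With 1 array per group it cannot settle what AKT activation does. With 4OHT in OSKA cells, 65 of 84 measured genes were higher and 19 lower. Of all measured genes 45.2% were higher, and of that brightest 33.3% of genes 45.1% were. The median was 0.11 against −0.03 over all measured genes and −0.03 over that brightest 33.3%. At least 1.2-fold higher were 10 genes (11.9%), where 15.3% of all genes and 9.76% of the bright ones were, and 1 gene (1.19%) was at least 1.2-fold lower, where 19.4% of all and 13.4% of the bright ones were. Only Ndufa4l2 reached 2-fold, as did 2.91% of all genes. The remaining 73 genes, 86.9%, lay within 1.2-fold, against 76.8% of the brightest 33.3%. With 4OHT in OSK cells, 64 of 84 were higher and 20 lower, with a median of 0.08 against 0.00 over all genes. Of all genes 49.4% were higher, and of the bright ones 53.1%. Here 8 genes (9.52%) were at least 1.2-fold higher, against 15.4% of all genes and 8.98% of the bright ones, and 1 was lower, against 12.3% and 4.85%. None reached 2-fold (0.886% of all genes), and 89.3% lay within 1.2-fold, against 86.2% of the bright ones. The counts of higher genes moved with the processing: quantile normalization gave 16 in OSKA cells and 5 in OSK cells, normexp background correction gave 4 in OSK cells, and spike-in scaling gave 1 higher and 33 lower in OSK cells. The share of all genes called under each of these settings is not given here. Under spike-in scaling the median of all genes was itself −0.31 in OSK cells, so these counts cannot be read as particular to the respiratory genes. The shift was thus small and upward with 4OHT whether or not AKT-MER was present, except that in OSK cells the median was −0.23, with 79 of 84 lower, once arrays were scaled to spike-in RNA. Under that scaling 19 of the 40 differences of single named genes with 4OHT in OSK cells changed sign, as did 18 of 41 between OSKA and OSK cells without 4OHT, 6 of 40 with 4OHT and none of 40 for 4OHT in OSKA cells. It was higher in both kinds of cells for 53 genes, in OSKA cells alone for 12, in OSK cells alone for 11 and in neither for 8, which are 63.1%, 14.3%, 13.1% and 9.52% of the 84, against 21.7%, 22.7%, 27.7% and 27.9% of all genes. The median of the difference between the 2 effects was 0.01, and 0.33 under spike-in scaling, where 56 of the 84 genes passed 1.2-fold upward (51.6% of all genes) and none downward. With scaling to the 75th percentile it passed 1.2-fold in the upward direction for Ndufa4l2 (1.38), Cox18 (0.49) and Cox15 (0.41), and in the downward direction for Cox6a2 (−0.37), Cox7a2l (−0.31) and Ndufs4 (−0.31). That is 3.57% of the genes each way, where 19.5% and 26.8% of all genes passed.

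**Figure D3:**
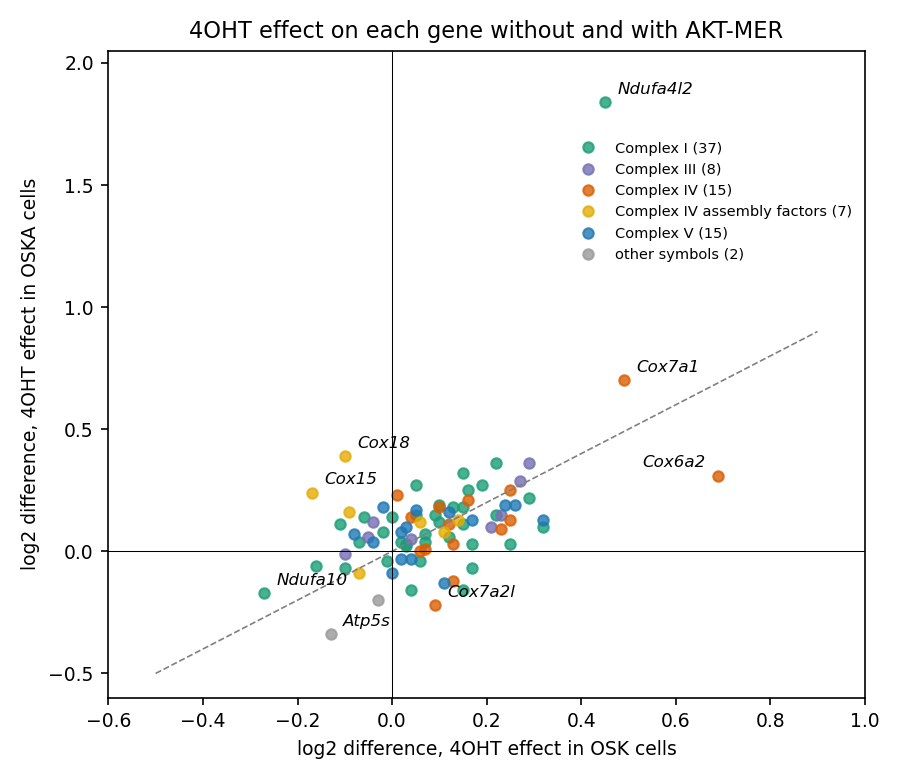
Log2 difference with 4OHT in OSK cells (horizontal axis) against that in OSKA cells (vertical axis) for the 84 genes measured on all 4 arrays, 1 point per gene, coloured by complex; the dashed line marks equal differences. Most points lie right of and above 0 near the line, and Ndufa4l2 lies far above it at 0.45 and 1.84.

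The complexes did not part from one another in OSKA cells. The median 4OHT difference there was 0.10 for the 37 genes with a Complex I symbol (Ndufa4 and Ndufa4l2 included), 0.11 for the 8 of Complex III, 0.13 for the 15 measured of Complex IV, 0.13 for 7 assembly factors and 0.10 for the 15 of Complex V. In OSK cells the medians were 0.09, 0.12, 0.13, −0.07 and 0.04, and all 15 measured Complex IV genes were higher. These directions depend on the scaling, since 79 of the 84 genes were lower in OSK cells under spike-in scaling. Ndufa4l2, which has a Complex I symbol but is a paralog of a Complex IV subunit, had the largest 4OHT difference in OSKA cells in that list. The next largest were in small accessory subunits of Complex I: Ndufv3 was at 5.65, 5.87, 5.82 and 6.18 (0.36 higher) and Ndufs5 at 5.38, 5.53, 5.47 and 5.79 (0.32 higher). Ndufc1 and Ndufa11, also accessory subunits, were each 0.27 higher. The lowest was Ndufa10, at 3.07, 2.80, 2.81 and 2.64, which was highest in OSK − 4OHT and was 0.27 lower both with 4OHT in OSK cells and in OSKA − 4OHT. Ndufa2 and Ndufa3, accessory subunits, were 0.32 and 0.29 higher with 4OHT in OSK cells and 0.10 and 0.22 higher in OSKA cells, and under spike-in scaling the OSK values were 0.01 and −0.02. A second, dim probe of Ndufa3 went the other way, 0.25 lower in OSK cells and 0.04 lower in OSKA cells. Ndufb6, a further accessory subunit, was at 4.51, 4.35, 4.36 and 4.30, 0.16 lower with 4OHT in OSK cells. In Complex III, Uqcrq, a small subunit, was at 6.10, 6.39, 6.34 and 6.70, 0.36 higher in OSKA and 0.29 higher in OSK cells with 4OHT, the second of which was −0.02 under spike-in scaling. Its second probe was 0.42 and 0.32 higher before that scaling. Uqcr10, another small subunit, was 0.29 higher in OSKA cells. Uqcrc1, a core protein of the complex, was at 3.44, 3.35, 3.25 and 3.23, and was 0.20 lower in OSKA − 4OHT than in OSK − 4OHT. In Complex V all 15 genes lay within 1.2-fold in OSKA cells by their brightest probes, from −0.13 for Atp5o to 0.19 for Atp5l and Atp5j2. Dimmer probes of 3 of them did not: of the 6 probes of Atp5l 2 were 0.57 and 0.30 higher, and a second probe was 0.46 lower for Atp5c1 and 0.28 lower for Atp5g1. In OSK cells Atp5k, a small subunit of the membrane part, was 0.32 higher, from 5.26 to 5.58, but the difference ran from 0.01 to 0.33 over the alternative treatments of the data. The 3 genes for the same c-ring peptide, Atp5g1, Atp5g2 and Atp5g3, differed by 0.17, −0.09 and 0.10 with 4OHT in OSKA cells.

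Among the assembly factors Cox18, which inserts a core subunit of Complex IV into the membrane, was at 0.94, 0.84, 0.82 and 1.21, highest in OSKA + 4OHT by 0.39 over OSKA − 4OHT and by 0.37 over OSK + 4OHT. Cox11, a copper-insertion factor, was at 1.62, 1.54, 1.72 and 1.89. Cox15, which takes part in making haem A, was at 0.24, 0.07, 0.00 and 0.24, but its second probe was 0.23 lower with 4OHT in OSKA cells where the first was 0.24 higher. Atp5s and Atp5sl, the 2 genes that only carry the symbol, were 0.34 and 0.20 lower with 4OHT in OSKA cells, and 0.19 and 0.36 lower in OSKA + 4OHT than in OSK + 4OHT.

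The core subunits, most of which carry the flavin, iron-sulfur centres or the nucleotide-binding sites of the ATP synthase, were nearly level with 4OHT, except in OSK cells under spike-in scaling. The 9 described were Ndufs1, Ndufs3, Ndufs7, Ndufs8, Ndufv1, Ndufv2, Uqcrfs1, Atp5a1 and Atp5b. With 4OHT they differed by −0.07 to 0.18 in OSKA cells (median 0.07) and by −0.11 to 0.17 in OSK cells (median −0.04), and none passed 1.2-fold. Atp5a1, the alpha subunit of the ATP synthase, was at 5.97, 5.93, 5.83 and 5.88, and Atp5b, the beta subunit, at 7.09, 7.01, 6.97 and 7.05. In OSKA − 4OHT all 9 were lower than in OSK − 4OHT (median −0.13, lowest −0.30). Most genes were lower there too: 47% of all genes and 42% of the brightest 33.3% were higher. Ndufs8, an iron-sulfur subunit at 2.88, 2.77, 2.58 and 2.69, was the only one of the 9 past 1.2-fold.

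Between OSKA and OSK cells the medians of the group were at 0.00. Under spike-in scaling they were −0.44 without 4OHT and −0.13 with it, under quantile normalization −0.01 and 0.08 (60 of 84 higher), and with normexp background correction −0.04 (48 of 85 lower) and 0.02. Without 4OHT, where the cells differ by the presence of AKT-MER, 43 of 85 measured genes were higher in the OSKA sample and 42 lower. Of all genes 47% were higher. The median was 0.00 against −0.02 over all genes. Past 1.2-fold were 2 genes upward (18.2% of all genes), Cox6a2 and Cox6b2, and 3 downward (15.2%), Cox17, Ndufs8 and Ndufa10, with Cox17 past 2-fold (2.02% of all genes). With 4OHT, 41 of 84 were higher and 43 lower, with a median of 0.00 against −0.05, and 42.9% of all genes were higher. Past 1.2-fold were 9 genes upward (15.7% of all genes) and 5 downward (22.5%), and only Ndufa4l2 passed 2-fold (3.04%). The 5 lower ones were Atp5sl, Cox7a2l, Cox4i1, Ndufa6 and Ndufs7, between −0.28 and −0.36. This split was 18 upward and 1 downward after quantile normalization, and 3 and 15 after scaling to spike-in RNA. The median of all genes was then −0.03 and −0.18, and the shares of all genes called under those scalings are not given here.

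**Figure D4:**
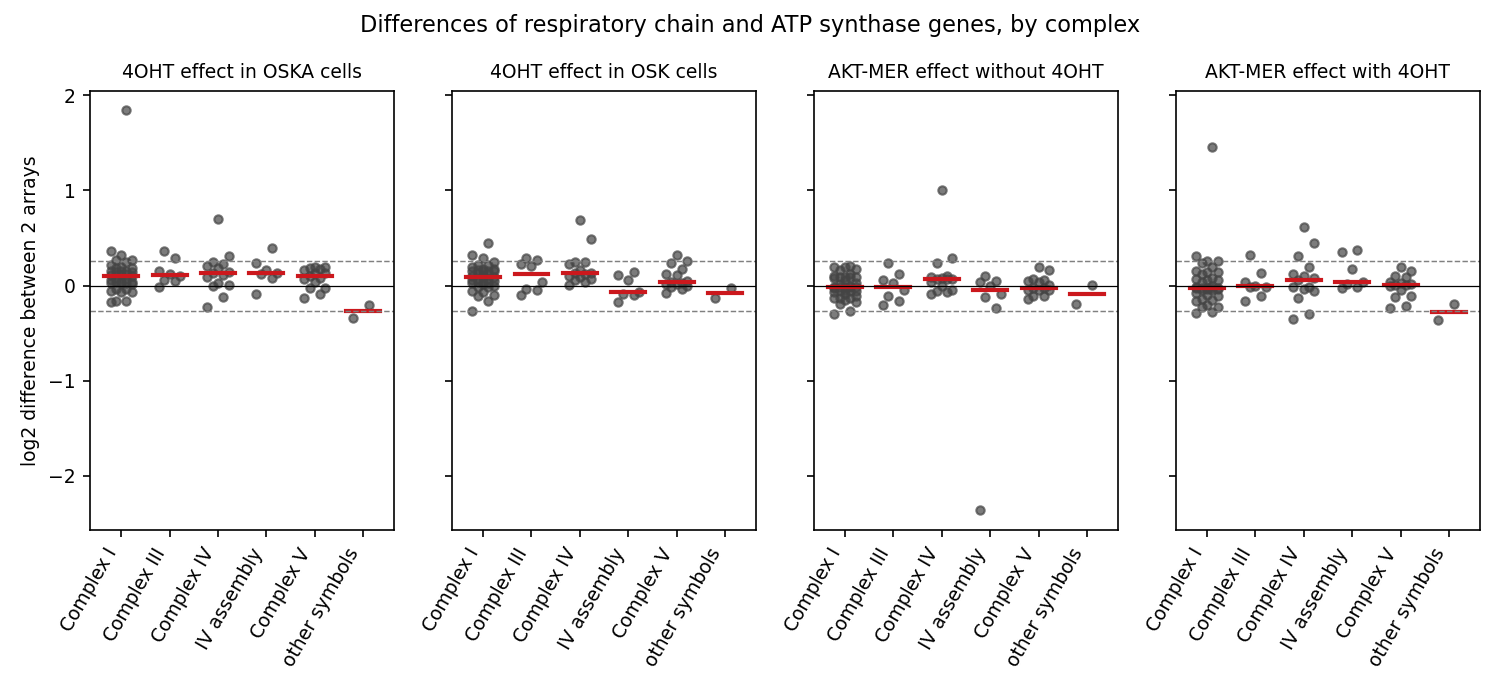
Log2 difference (vertical axis) of each measured gene in the 4 comparisons, 1 point per gene, with the median of each complex in red and 1.2-fold marked by dashed lines; "other symbols" are Atp5s and Atp5sl. Medians lie between −0.27 and 0.13, and the points farthest outside the dashed lines are Ndufa4l2, Cox7a1, Cox6a2 and Cox17.

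Over the 4 arrays, 68 of the 84 genes had their highest level on an array with 4OHT, 37 in OSKA + 4OHT and 31 in OSK + 4OHT, against 49.4% of all genes. The lowest level was on an array without 4OHT for 63, against 45.9% of all genes. OSKA − 4OHT was highest for 2 genes, against 19% of all genes. The array of the highest level depended on the scaling: after quantile normalization it was OSKA + 4OHT for 52 genes and OSK + 4OHT for 14 (an array with 4OHT for 48.7% of all genes), with normexp background correction 43 and 20, and after scaling to spike-in RNA it was OSK − 4OHT for 77, as for 78.8% of all genes. Under spike-in scaling all genes shifted alike, their median going to −0.31 for 4OHT in OSK cells, −0.46 for AKT-MER without 4OHT and −0.18 with it, while the 4OHT comparison in OSKA cells stayed at −0.02. Relative to the median of all genes, the respiratory genes were at 0.14 for 4OHT in OSKA cells, 0.08 for 4OHT in OSK cells, 0.02 for AKT-MER without 4OHT and 0.05 with it. Spike-in scaling cannot change these values, because it shifts all genes of an array by the same amount. With dim probes kept in, they came to 0.05, 0.01, 0.08 and 0.12.

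Probes of one gene differed by about as much as the group medians did from 0. For the 27 genes with at least 2 measured probes the median spread between probes was 0.08 to 0.12 over the 4 comparisons, and 4 to 8 genes spread over more than 1.2-fold. Both were largest for 4OHT in OSKA cells, 0.12 and 8 genes, where the median difference of the group was 0.11. The widest was Ndufb11, an accessory subunit of Complex I, whose brightest probe differed by 0.02 with 4OHT in OSKA cells while another, dim probe was 0.65 lower. For Uqcrb, of Complex III, the brightest probe was 0.05 higher there and the other probes were 0.56 and 0.16 higher.

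Other genes of mitochondrial energy conversion were taken as lists. Their counts can be set against all measured genes, of which 4OHT left 45.2% higher with AKT-MER present and 49.4% with it absent. The 13 protein-coding genes of mitochondrial DNA, which supply the core of Complexes I, III, IV and V, differed by a median of 0.12 with 4OHT in OSKA cells, 12 of 13 higher and none past 1.2-fold. In OSK cells the median was −0.09 with 9 of 13 lower (−0.39 and 12 of 13 under spike-in scaling). There 4 genes were at least 1.2-fold lower (12.3% of all genes) and 1, ND6, at least 1.2-fold higher (15.4%). COX2 was at 8.47, 8.65, 8.37 and 8.56, and ND6, the one gene on the light strand, at −0.38, 0.20, 0.36 and 0.54. Of 15 measured electron carriers and their partners 12 were higher with 4OHT in OSKA cells (median 0.08), led by Cycs, cytochrome c, at 4.18, 4.22, 4.26 and 4.70, and Etfb, of the electron-transfer flavoprotein, 0.29 higher. In OSK cells 10 of those 15 were lower (median −0.08). Of 9 genes for ATP export, inhibition and uncoupling none passed 1.2-fold in OSKA cells, with Slc25a5, the adenine nucleotide carrier, 0.26 higher and Vdac1, the outer membrane channel, 0.24 higher.

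The 32 measured assembly factors outside the group were evenly split in OSKA cells, 16 higher and 16 lower, while in OSK cells 26 were lower (median −0.06). With 4OHT in OSKA cells Oxa1l, the inner membrane insertase, was 0.43 lower and Sco2, a copper chaperone of Complex IV, 0.38 lower. Pet100, a further Complex IV factor, was well above background in OSKA + 4OHT alone, at least 2.36-fold above OSKA − 4OHT. The 15 measured regulators of mitochondrial biogenesis had a median of −0.07. Ppargc1a, the coactivator PGC-1 alpha, was dim, at −4.15, −3.66, −3.81 and −3.09, with differences for 4OHT of 0.72 in OSKA cells and 0.49 without AKT-MER, and Esrra had 0.35 and 0.12. Ppargc1b, the related coactivator PGC-1 beta, went the other way: it was well above background in OSKA − 4OHT alone, at −3.07, and was at least 3.23-fold lower with 4OHT in OSKA cells and at least 3.01-fold higher in OSKA − 4OHT than in OSK − 4OHT. The 76 mitochondrial ribosomal protein genes had a median of 0.05, with Mrps27 0.45 lower and Mrpl9 0.34 lower. The cytosolic ribosomal protein genes went the other way in OSKA cells: 70 of 80 were lower with 4OHT, with a median of −0.20, from −0.51 for Rps21 to 0.47 for Rpl31. In OSK cells 75 of 80 were higher, with a median of 0.12 (−0.19 under spike-in scaling and 0.00 under quantile normalization). Between OSKA + 4OHT and OSK + 4OHT 76 of 80 were lower with a median of −0.34, where the respiratory genes were at 0.00. Most genes were lower there too: 42.9% of all genes and 39.9% of the brightest 33.3% were higher, with medians of −0.05 and −0.06. Of those bright genes 4OHT left 45.1% higher with AKT-MER present and 53.1% with it absent. Quantile normalization brought the ribosomal medians to −0.10 for 4OHT in OSKA cells and −0.10 between OSKA + 4OHT and OSK + 4OHT, where the respiratory genes were then at 0.08.

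**Figure D5:**
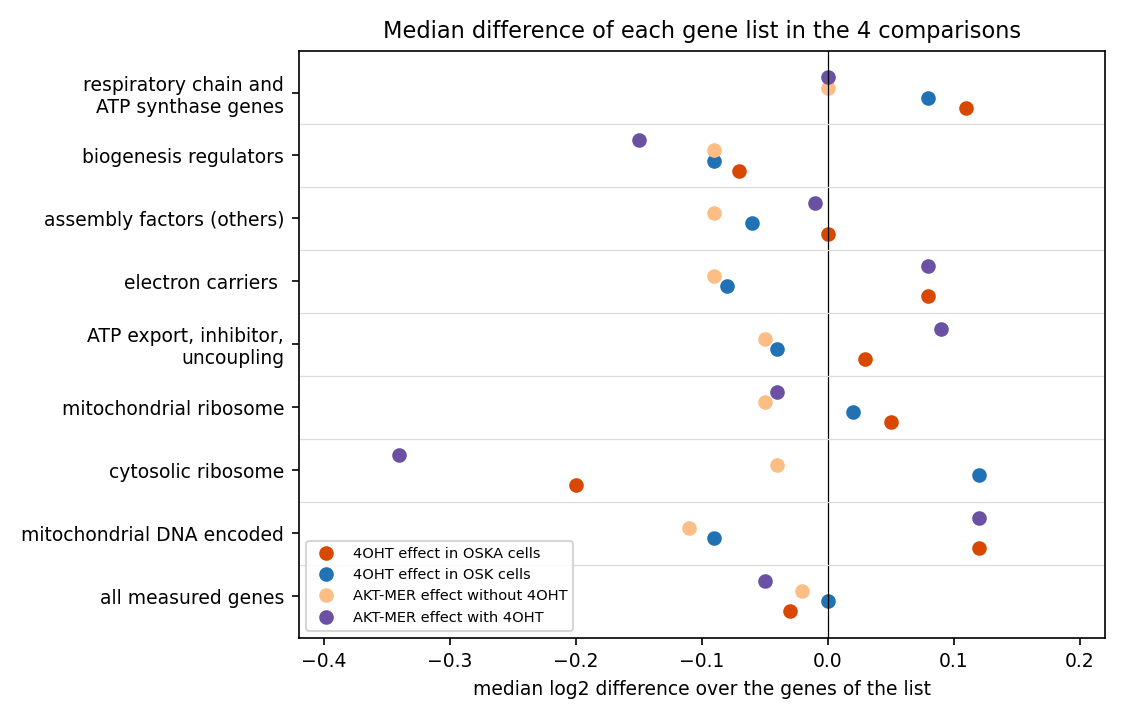
Median log2 difference (horizontal axis) of each gene list in the 4 comparisons, 1 coloured point per comparison. The respiratory genes lie at 0.11 and 0.08 for 4OHT and at 0.00 for AKT-MER, and the cytosolic ribosomal protein genes at −0.20 and −0.34 in the comparisons that end in OSKA + 4OHT.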

How the data were processed

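Each of the 4 samples was labelled with Cy3 from 100 ng of RNA and hybridised to 1 single-colour Agilent array of 62976 spots. The authors scanned the slide and ran Agilent Feature Extraction 10.7.3.1, and the deposited scanner files hold each spot's processed intensity, subtracted for background and detrended. The authors' series matrix holds the same intensity values (ratio 0.995 to 1.005 to the scanner files), on a linear scale.

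Spots flagged as outliers (104 to 155 per array) were left out, the log2 of the intensity was taken, and the 75th percentile of each array was subtracted. The 75th percentile intensity was 377 to 462, and 52.4 to 55.4% of spots were well above background; the number of arrays limits the precision. Spots of a probe were averaged, and a gene was read by its brightest probe. A difference was taken where both arrays were well above background; with 1 such array, the bound sets its level against the lowest level measured on the other array or the probe's own, whichever was higher. There are no replicates, so no test was run. The procedure was tested on simulated data. Python 3.11.15, pandas 2.3.3, numpy 2.4.6, matplotlib 3.10.9, R 4.3.3 and limma 3.58.1 were used.

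All 88 genes matched RefSeq, 3 under another current symbol. Genes named are the 5 highest and 5 lowest in each of 4 comparisons, those past 2-fold, Cox17, core subunits (1 is not reported here) and isoform sets; of other lists, the 2 largest differences with 4OHT in OSKA cells among genes measured on both arrays. Others named for their probes or place (Uqcr10, Uqcrb, Ndufs5, Ndufc1, Ndufa11, Ndufb11, Atp5o, Atp5l, Atp5j, Atp5j2, Rpl31, Ppargc1b, Pet100, Atp5c1) and the comparison of promoters with and without a motif were chosen after their values were seen. The members and lists were chosen with earlier results of these data known. Alternatives were normexp background correction (limma, offset 50), quantile normalization, scaling to 7 spike-in probes, centring on the median, the mean of all probes, 2 other filters on dim probes, the series matrix, subunits only and a 1.5-fold threshold.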

Additional observations from a re-analysis of the deposited data

How the results depend on the processing

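With 1 array per group no array could be left out, and no paired analysis was possible because the arrays carry no replicate numbers. Of 152 summary values of the respiratory genes recomputed under an alternative, 125 stayed within 1.5 times the count or within the spot-repeat SD of the value, 27 moved, and the cause was not tested. The series matrix holds the same intensities, so values under it were bound to stay. That SD, 0.095, is one of single differences, so a median can shift a good deal within it. Of 72 medians 2 changed sign, leaving out those that round to 0.00: that for 4OHT in OSK cells under spike-in scaling, and that for AKT-MER without 4OHT relative to all genes, which was −0.02 with normexp. Relative to all genes, the median ran over the alternatives from 0.05 to 0.16 for 4OHT in OSKA cells, 0.01 to 0.10 for 4OHT in OSK cells, −0.02 to 0.08 for AKT-MER without 4OHT and 0.04 to 0.12 with it. For both 4OHT comparisons the lowest came without a filter on dim probes. Scaling to spike-in RNA gave medians of −0.23 for 4OHT in OSK cells, −0.44 for AKT-MER without 4OHT and −0.13 with it. Under it the genes at least 1.2-fold higher and lower numbered 1 and 33 for 4OHT in OSK cells, 1 and 77 for AKT-MER without 4OHT, and 3 and 15 with 4OHT. The medians of all genes were then −0.31, −0.46 and −0.18. The share of all genes called is not given here for any alternative, so the counts do not tell the respiratory genes from the rest. Of the named differences past 1.2-fold, spike-in scaling turned those of Ndufa3 (−0.02) and Uqcrq (−0.02) with 4OHT in OSK cells and of Cox6b2 (−0.15) between OSKA and OSK cells without 4OHT. Quantile normalization gave 16 higher genes for 4OHT in OSKA cells, 5 for 4OHT in OSK cells, and 18 higher and 1 lower for AKT-MER with 4OHT. Normexp background correction gave 0 lower genes for 4OHT in OSKA cells, 4 higher for 4OHT in OSK cells and 1 higher for AKT-MER without 4OHT. Without a filter on dim probes 2 genes were lower with 4OHT in OSKA cells, 2 were lower in OSK cells, and among subunits only 0 were lower in OSKA cells. At 1.5-fold, higher and lower genes numbered 2 and 0 for 4OHT in OSKA cells, 1 and 0 for 4OHT in OSK cells, 1 and 1 for AKT-MER without 4OHT, and 2 and 0 with it. Of 1287 values of single named genes, 1128 moved by less than the spot-repeat SD, 156 moved by more, 118 of them under spike-in scaling, and the 3 above turned. None moved under the series matrix, the 2 other filters on dim probes or centring on the median. Those settings were bound to leave them nearly unchanged. They keep the same intensities or the same difference of a measured probe, or shift all genes of an array alike. The 1128 are therefore in part repeats of the same value. Counting differences of any size, 61 changed sign, 43 of them under spike-in scaling, 8 under quantile normalization, 5 under normexp and 5 with the mean of all probes.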
